A study of Arabidopsis thaliana with 12 samples.

Results

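The comparison described here was between wild-type Arabidopsis thaliana seedlings that were kept in darkness (Col_D) and wild-type seedlings that were moved from darkness into white light for 6 h (Col_DL6h). Seeds of both groups were kept for 3 days at 4 °C, exposed to light for 12 h and then grown in darkness for 4 days, and both groups are labelled as plant seedlings 4 days old, so that no group was raised in continuous light. Each group was labelled as 3 libraries of total RNA, or 6 of the 12 libraries of the series and 2 of its 4 groups. Both groups carry the wild-type genotype, and whole seedlings were the labelled tissue, which makes each value an average over cotyledons, hypocotyl and root.

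The members were all genes whose level could be compared between these groups. A gene was a member when it had a name and a single entry, when its FPKM (a level that divides the sequenced fragments of a gene by its length and by the depth of sequencing) was above 0 in both groups, and when the higher of both values was at least 1. Of 30572 gene names, 533 had several entries and 30039 had a single entry. Among the latter, 6090 were listed at 0 in both groups, 807 were listed at 0 in darkness alone, 1275 were listed at 0 in light alone, and 4608 were under 1 FPKM in both groups. The remaining 17259 genes, or 57.5% of the genes with a single entry, were the members, and 16508 of them were protein coding in the TAIR10.1 annotation.

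The deposited table gives a single FPKM per gene and group. The values therefore carry no spread between replicates, no test was possible, the depth behind them is unknown, and every difference below is a measured difference between those 2 values with no replicate check. Differences are given as the log2 of the light value over the dark value, and a gene is called higher or lower when its values differed by at least 2-fold. In whole seedlings, fewer cells of a type and less RNA per cell cannot be told apart.

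A seedling that germinates in darkness elongates its hypocotyl, keeps its cotyledons closed and holds etioplasts, which lack chlorophyll and thylakoid stacks. Light reaches the genes through phytochromes, cryptochromes and other photoreceptors, which remove PIF transcription factors and inactivate the COP1-SPA ubiquitin ligase, so that factors such as HY5 accumulate. Cotyledons then open, elongation slows and chloroplasts are built, a programme known as de-etiolation.

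Among the 17259 members, 2186 genes or 12.7% were higher in light and 1794 genes or 10.4% were lower, while 13279 differed by less than 2-fold. The median log2 difference was 0.01, and the central 90% of genes lay between -1.50 and 1.85. Larger differences were more often toward higher levels in light. At least 10-fold differences were found for 223 higher and 190 lower genes, and at least 100-fold differences for 36 higher and 18 lower genes. With 1 FPKM added to both values, which damps differences at low levels, 9.98% of members were higher and 7.97% were lower. Of the genes called, 209 higher and 192 lower genes had a lower value under 0.5 FPKM, so that they could enter the set only by differing.

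The same dark wild type appears in the authors' tables against each of 2 mutants, which allows a check of the dark value itself. After scaling, 97.9% of 16953 genes had a dark value within 1.5-fold of that in the det1-1 table, and 89.8% of 16134 genes had a dark value within 1.5-fold of that in the pifq table. Scaling multiplied the dark values of the det1-1 table by 1.08 and those of the pifq table by 1.03. Dark values quoted below from these 2 tables are the scaled ones. For 1965 members at least 1 table disagreed by more than 1.5-fold, and 470 of these were called in light. In a separate count, which shares genes with the former, 330 members were listed at 0 in darkness in another table, and 175 of these were called in light. Markers of tissues were summed in both groups, as a check of what each sample held. Of 13 root markers, 1 was higher and none was lower, with a summed level of 746 FPKM in darkness and 869 FPKM in light. None of 4 epidermis markers and none of 7 vascular markers was called, and their summed levels were 635 and 378 FPKM in darkness and 744 and 354 FPKM in light. Of 2 shoot meristem markers, STM, a meristem homeodomain factor, was lower, at 6.01 FPKM in darkness and 2.92 FPKM in light, and KNAT1, another such factor, was at 40.7 and 69.4 FPKM, for sums of 46.7 and 72.3 FPKM.

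**Figure D1:**
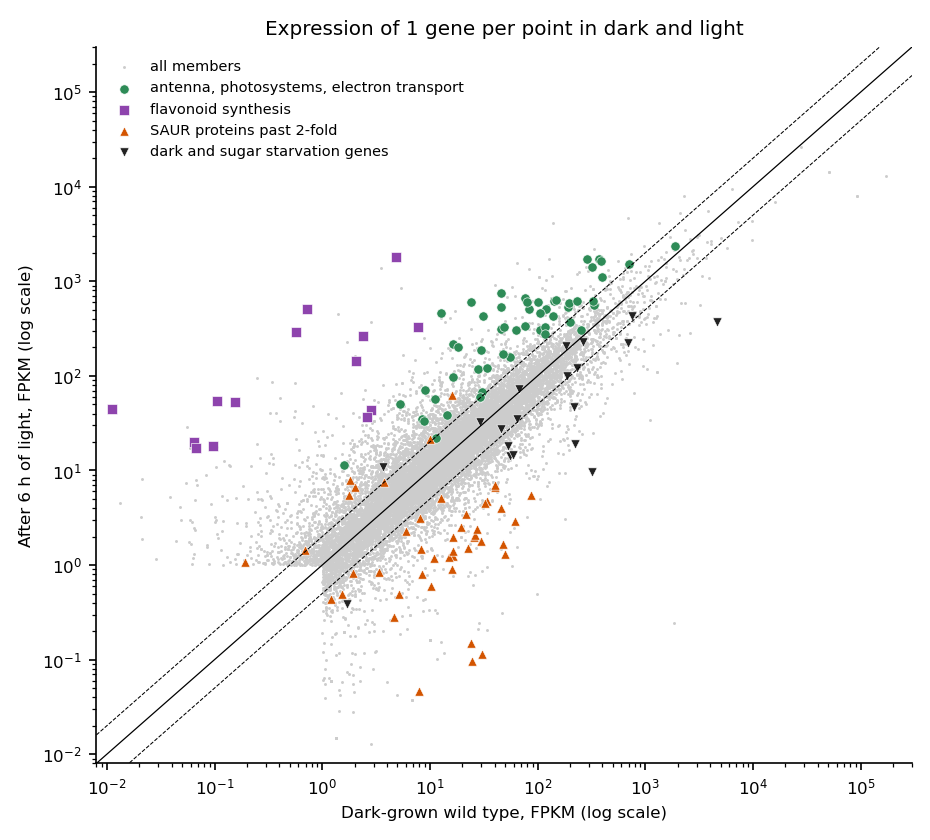
FPKM of each member in darkness (horizontal, log scale) against its FPKM after 6 h of light (vertical, log scale), with guide lines at 2-fold and chosen gene groups marked. Flavonoid and antenna genes lie above the diagonal, whereas most dark starvation genes lie below it.

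Nuclear genes for the light-harvesting antenna, whose proteins bind chlorophyll and pass absorbed energy to the photosystems, were higher as a group. Of 18 members, 15 were higher and none was lower, with a median log2 difference of 2.52. LHCA1, an antenna protein of photosystem I, stood at 45.4 FPKM in darkness and 756 FPKM in light. LHCB2.2, which encodes an antenna protein of photosystem II, stood at 12.8 FPKM in darkness and 457 FPKM in light. Antenna genes did not start from a common level, since LHCB1.3 was already at 1888 FPKM in darkness and reached 2345 FPKM in light, a difference under 2-fold. The 18 genes together came to 3426 FPKM in darkness and 9893 FPKM in light. LHCB1.1, LHCB2.1, LHCB2.2 and LHB1B1 were among the genes whose dark value differed between the tables. LHCB1.1 was at 46.0 FPKM in darkness in this table and at 3.48 FPKM in the det1-1 table, so the dark level of these single copies is uncertain. LHCB2.1, LHCB2.2, LHB1B1 and LHB1B2 share at least 20% of their 32-base stretches with other genes, and whether reads were split between copies was not tested.

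Subunits of the photosystems and of the electron carriers between them moved in the same direction. Of 21 nuclear photosystem subunits, 18 were higher and none was lower, with a median log2 difference of 2.08. PSAH2, a subunit of photosystem I, stood at 31.1 FPKM in darkness and 430 FPKM in light, whereas its relative PSAH-1 was at 202 and 368 FPKM. PSBO2, a copy of the manganese-stabilising protein of photosystem II, was at 29.6 FPKM in darkness and 190 FPKM in light, while PSBO1 was at 330 and 624 FPKM. In both pairs the copy with the lower dark level showed the larger difference. All 14 genes for electron transport and the chloroplast ATP synthase were higher, with a median of 1.88. FD2, the main leaf ferredoxin, was at 285 FPKM in darkness and 1724 FPKM in light, and ATPD, a subunit of the ATP synthase, was at 48.9 and 326 FPKM. NDF4, a subunit of the chloroplast NADH dehydrogenase-like complex, was at 5.33 FPKM in darkness and 50.3 FPKM in light, and its annotated span overlaps that of DELTA-TIP, which was lower in light.

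Photoprotection genes held the largest single differences of the photosynthesis lists, those of ELIP1 and ELIP2. Of 14 members, 12 were higher and 1 was lower, with a median log2 difference of 2.36. ELIP1 (AT3G22840, TAIR10.1 chromosome 3, 8084405 to 8085669), which encodes an early light-inducible protein of the thylakoid, stood at 3.48 FPKM in darkness and 1373 FPKM in light, a log2 difference of 8.62. Its relative ELIP2 was at 5.45 FPKM in darkness and 854 FPKM in light. NPQ4, the PsbS protein of energy-dependent quenching, was at 58.3 FPKM in darkness and 879 FPKM in light, with 88.8 FPKM in darkness in the pifq table. FTSH1, a thylakoid protease that degrades damaged photosystem II protein, was at 7.36 and 68.8 FPKM. The lower gene was LIL3:2, a light-harvesting-like protein, which was at 209 FPKM in darkness and 66.0 FPKM in light, opposite to its relative LIL3:1 at 18.6 and 57.8 FPKM.

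Carbon fixation genes were higher from a wide range of dark levels. Of 16 Calvin cycle genes, 11 were higher and none was lower, with a median log2 difference of 1.3. RCA, the activase that frees Rubisco of bound inhibitors, was at 137 FPKM in darkness and 1141 FPKM in light. The small subunit genes of Rubisco were already among the most abundant transcripts in darkness, and RBCS3B was at 2295 FPKM in darkness and 7956 FPKM in light. RBCS1A, from 3846 to 5517 FPKM, differed by less than 2-fold, and CP12-1, a redox regulator of the cycle, was at 1258 and 989 FPKM. RBCS1B was at 335 FPKM in darkness in this table but at 13.7 and 21.0 FPKM in the det1-1 and pifq tables. RBCS2B and RBCS3B also differed between tables, so the dark level of single small subunit genes is uncertain. Photorespiration, the pathway that recovers carbon after Rubisco fixes oxygen, had 9 of 13 genes higher and none lower. SHM1, the mitochondrial serine hydroxymethyltransferase, was at 24.7 FPKM in darkness and 218 FPKM in light, and GLDP1, the P protein of glycine decarboxylase, was at 45.6 and 315 FPKM, with 110 FPKM in darkness in the pifq table.

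Chlorophyll synthesis genes split by step. Of 22 members, 12 were higher and 2 were lower. GUN4, which activates magnesium chelatase, stood at 8.78 FPKM in darkness and 107 FPKM in light, with 18.4 FPKM in darkness in the pifq table, and CHLH, the large chelatase subunit, was at 21.5 and 172 FPKM. CAO, which makes chlorophyll b, was at 8.29 FPKM in darkness and 35.9 FPKM in light. Both lower genes encode protochlorophyllide oxidoreductases, the enzymes whose reaction needs light. PORA (AT5G54190) was at 178 FPKM in darkness and 3.08 FPKM in light, a log2 difference of -5.85, and PORB was at 237 and 65.5 FPKM. Among 17 genes for carotenoids and their plastid precursors, 9 were higher and none was lower. PSY, phytoene synthase at the entry of the carotenoid pathway, was at 13.8 FPKM in darkness and 71.4 FPKM in light, and LUT5, a carotene hydroxylase of the lutein branch, was at 1.57 and 19.6 FPKM.

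Genes that build and run the plastid included higher but no lower genes in both lists examined. In the plastid transcription and nucleoid list, 12 of 17 genes were higher and none was lower, with a median of 1.38. SIG5, a sigma factor that directs the plastid RNA polymerase, was at 1.48 FPKM in darkness and 66.4 FPKM in light. FLN2, a kinase-like protein of the same polymerase complex, was at 1.72 FPKM in darkness and 12.7 FPKM in light, and the authors' program listed no comparison for it. In the import and chaperone list, 8 of 22 genes were higher, none was lower and most differed by less than 2-fold. The stromal chaperone CPHSC70-2 was at 20.8 FPKM in darkness and 133 FPKM in light, whereas the import receptor TOC159 was at 83.9 and 65.7 FPKM and TOC33 at 63.2 and 56.3 FPKM. By location in the annotation, 96 of 173 thylakoid membrane genes, 88 of 219 stroma genes and 88 of 241 envelope genes were higher, each with 3 lower. For comparison, 93 of 605 mitochondrial genes were higher and 26 were lower.

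**Figure D2:**
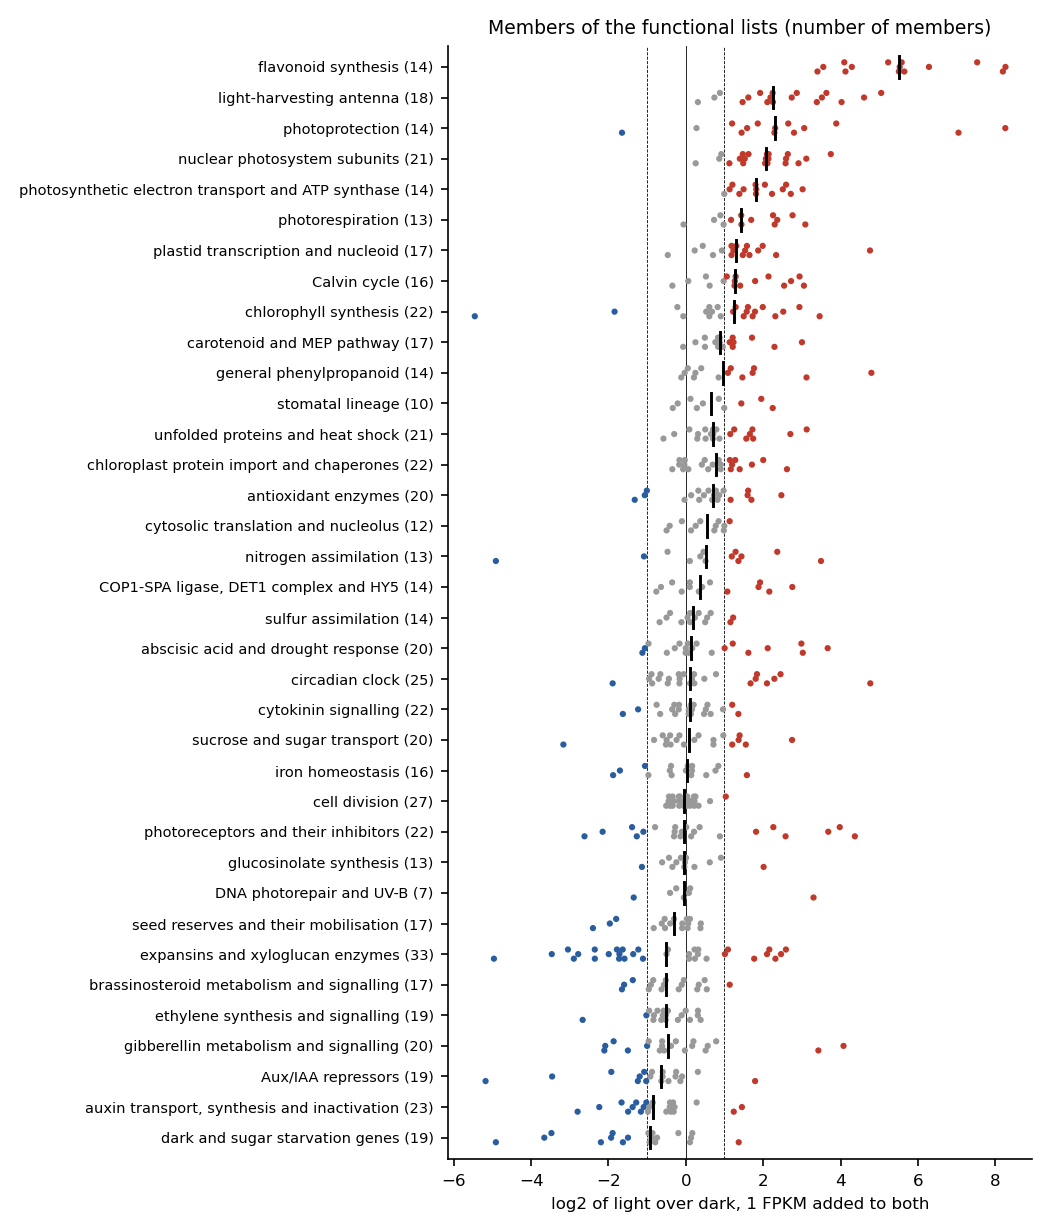
Log2 difference between light and dark for every member of each gene list, computed with 1 FPKM added to both values; each dot is a gene and the black bar is the median of the list. The flavonoid list has a median of 5.52 and the photosynthesis lists lie right of 0, whereas the starvation and auxin lists have medians below 0.

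Flavonoid synthesis was the list furthest from 0. Flavonols and anthocyanins are phenolic pigments that screen ultraviolet and excess visible light. All 14 members were higher, and 6 of them could have entered only by differing. The median log2 difference was 8.13 as deposited and 5.52 with 1 FPKM added. CHS (AT5G13930, TAIR10.1 chromosome 5, 4488476 to 4490264), chalcone synthase at the head of the pathway, stood at 4.88 FPKM in darkness and 1809 FPKM in light, a log2 difference of 8.53. TT5, chalcone isomerase, was at 7.80 FPKM in darkness and 330 FPKM in light, and its non-catalytic relative CHIL was at 2.40 and 264 FPKM, with 4.11 FPKM in darkness in the pifq table. F3H, flavanone 3-hydroxylase, was at 0.721 FPKM in darkness and 505 FPKM in light, and was one of the genes whose dark value differed between tables, with 52.5 FPKM in the pifq table. FLS1, which makes flavonols, was at 0.577 FPKM in darkness and 291 FPKM in light, with 0.912 FPKM in darkness in the pifq table.

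DFR, LDOX and GSTF12, which act late in anthocyanin formation, reached lower levels than CHS, TT5, F3H and FLS1. DFR, the dihydroflavonol reductase, was at 0.0111 FPKM in darkness and 45 FPKM in light. LDOX, anthocyanidin synthase, was at 0.106 and 54.5 FPKM. GSTF12, the glutathione transferase that carries anthocyanins toward the vacuole, was at 0.155 FPKM in darkness and 52.4 FPKM in light. Their dark values were under 0.5 FPKM, so that each could have entered only by differing. The 14 flavonoid genes together came to 24.4 FPKM in darkness and 3633 FPKM in light. Upstream, 7 of 14 general phenylpropanoid genes were higher and none was lower. 4CL3, the coumarate ligase that feeds flavonoids, was at 0.564 FPKM in darkness and 42.5 FPKM in light, whereas 4CL1 was at 108 and 125 FPKM and 4CL2 at 36.0 and 37.3 FPKM. FAH1, a hydroxylase that leads to sinapate esters and syringyl lignin, was at 7.96 and 76.9 FPKM, and UGT84A2, a glucosyltransferase that acts on sinapate, was at 13.9 and 372 FPKM.

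Upstream sequence of genes that were higher is shown where a G-box, CACGTG, lies close to the annotated start. The G-box is the core bound by bZIP factors such as HY5 and by bHLH factors such as the PIFs. Each sequence is the 120 bases before the annotated start in TAIR10.1 (RefSeq), written 5′ to 3′ on the gene's strand, with the motif in capitals. ELIP1 lies at chr3:8085670-8085789 on the minus strand, CHIL at chr5:1563166-1563285 on the plus strand, BBX30 at chr4:8708721-8708840 on the plus strand and GLDP1 at chr4:15931423-15931542 on the minus strand.
ELIP1: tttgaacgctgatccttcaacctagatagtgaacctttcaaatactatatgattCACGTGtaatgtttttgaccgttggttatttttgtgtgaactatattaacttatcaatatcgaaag
CHIL: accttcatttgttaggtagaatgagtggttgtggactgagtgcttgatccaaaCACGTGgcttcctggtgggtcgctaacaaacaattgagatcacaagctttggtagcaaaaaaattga
BBX30: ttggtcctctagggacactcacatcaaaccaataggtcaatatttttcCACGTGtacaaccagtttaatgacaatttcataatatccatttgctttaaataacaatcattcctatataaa
GLDP1: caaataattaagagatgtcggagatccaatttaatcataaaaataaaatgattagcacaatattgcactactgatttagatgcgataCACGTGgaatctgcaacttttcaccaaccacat

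The first base of the motif lies 66 bases before the annotated start in ELIP1, 67 in CHIL, 72 in BBX30 and 33 in GLDP1. The 4 genes were chosen to show the motif and stand for no average. Across all 16508 protein-coding members, CACGTG was found in 7.55% of the 250-base upstream windows, in 8.10% of those of higher genes and in 9.69% of those of lower genes. The motif is palindromic, so both strands are read at once. Among 82 genes of the photosynthesis lists the share was 18.3%, and 5 of the 14 flavonoid genes held the motif. For many genes the annotated start lies well before the coding sequence, and in the 300 bases before the first coding base the share was 35.4% for the photosynthesis genes and 7.08% for all members. The I-box core GATAAG, read on both strands, was found in 12.2% of all upstream windows and 11.6% of those of higher genes. In the 300 bases before the coding start it was found in 21.3% of higher genes, in 41 of the 82 photosynthesis genes and in 15.8% of all members. A match is a description of the letters and says nothing of binding.

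Genes that respond to darkness and lack of sugar were more often lower than higher. Of 19 members of the starvation list, 9 were lower, 1 was higher and the rest differed by less than 2-fold, with a median log2 difference of -0.94. DYL1 (AT1G28330, chromosome 1, 9933786 to 9935440), a dormancy-associated protein, stood at 4666 FPKM in darkness and 369 FPKM in light. ASN1, the asparagine synthetase of carbon-poor tissue, was at 322 FPKM in darkness and 9.74 FPKM in light, a log2 difference of -5.05. Its relative ASN2 went the other way, from 4.58 FPKM in darkness to 62.0 FPKM in light. MCCA, a subunit of the carboxylase that breaks down leucine, was at 224 and 19.3 FPKM, and DIN10, a raffinose synthase-like gene, was at 216 and 46.4 FPKM. STP1, a monosaccharide importer, was at 243 FPKM in darkness and 26.2 FPKM in light, whereas SWEET2, a vacuolar sugar carrier, was at 1.97 and 19.0 FPKM.

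Mobilisation of seed oil showed the same direction in its glyoxylate steps. ICL, isocitrate lyase, was at 597 FPKM in darkness and 112 FPKM in light, MLS, malate synthase, was at 43.7 and 11.8 FPKM, and PCK1, the carboxykinase of gluconeogenesis, was at 583 and 149 FPKM. The enzymes of peroxisomal fatty acid oxidation in the same list differed by less than 2-fold, for example ACX1 at 114 FPKM in darkness and 117 FPKM in light and PED1 at 249 and 170 FPKM. In the list as a whole, 4 of 17 genes were lower and none was higher. In nitrogen assimilation, 6 of 13 genes were higher and 2 were lower. The nitrate reductase genes NIA1 and NIA2 stood at 73.7 and 73.9 FPKM in darkness and at 191 and 170 FPKM in light, and the nitrate transporter NRT1.1 was at 307 and 145 FPKM.

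Antioxidant enzymes went in both directions. PRXQ, a thylakoid peroxiredoxin, was at 24.7 FPKM in darkness and 142 FPKM in light. CAT3, a catalase, was at 3655 FPKM in darkness and 1751 FPKM in light, whereas CAT2, the catalase of photorespiration, was at 217 and 428 FPKM. In total 5 of 20 were higher and 3 were lower. Of 16 iron homeostasis genes, 3 were higher and 4 were lower, but 5 members could have entered only by differing, 2 of them higher. With 1 FPKM added, 1 iron gene was higher and 3 were lower. FER3, a plastid ferritin that stores iron, was at 16.9 FPKM in darkness and 52.6 FPKM in light. FRO2, the root ferric reductase, was at 3.03 FPKM in darkness and 0.236 FPKM in light, and could have entered only by differing. Of 13 glucosinolate genes, 2 or 15.4% were higher and 1 was lower, and of 14 sulfur assimilation genes, 2 or 14.3% were higher and none was lower. Both shares of higher genes were near the 12.7% over all members.

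Photoreceptor genes and their inhibitors included genes of both directions, with 6 of 22 higher and 5 lower. RUP2, which returns the ultraviolet-B receptor to its ground state, stood at 2.47 FPKM in darkness and 70.8 FPKM in light. RPT2, a partner of the phototropins, was at 18.6 and 251 FPKM, and CRY3, a plastid and mitochondrial cryptochrome with repair activity, was at 1.34 and 36.0 FPKM. PHYA, the phytochrome that dark-grown seedlings hold most of, was at 234 FPKM in darkness and 51.9 FPKM in light, and FHL, which carries it into the nucleus, was at 12.9 and 1.26 FPKM. Of the other phytochromes, PHYB was at 18.7 and 35.3 FPKM, a difference just under 2-fold. In the ligase and HY5 list, 5 of 14 genes were higher and 1 was lower. HY5 was at 29.5 FPKM in darkness and 115 FPKM in light, SPA1, a partner of COP1, was at 5.19 and 40.8 FPKM, and COP1 itself was at 14.6 and 31.9 FPKM. DET1, a repressor of photomorphogenesis, was at 16.3 FPKM in darkness and 25.6 FPKM in light.

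The transcripts of the PIF factors that keep dark seedlings etiolated differed little. PIL5, which is also called PIF1, was at 19.7 FPKM in darkness and 21.5 FPKM in light, PIF3 was at 30.3 and 30.7 FPKM, PIF4 was at 11.2 and 8.03 FPKM, and PIL6, which is also called PIF5, was at 9.67 and 12.0 FPKM. The authors' program listed no comparison for PIF3, and the dark value of PIF4 differed between tables. Clock genes showed 7 of 25 higher and 3 lower. ELF4, a subunit of the evening complex, stood at 16.9 FPKM in darkness and 489 FPKM in light. PRR9 and PRR5, pseudo-response regulators of the day, were at 0.663 and 3.68 FPKM in darkness and at 4.82 and 21.9 FPKM in light, and the dark value of PRR9 was 0.435 FPKM in the det1-1 table. LHY, a morning MYB factor, was at 14.2 and 6.89 FPKM, and CCA1, its close relative, was at 12.6 and 6.37 FPKM, just short of 2-fold. The evening element core AAATATCT was found in 5.01% of all upstream windows and 6.43% of those of higher genes. Clock transcripts also depend on the hour of sampling, which the labels do not give, so hour and light cannot be told apart for them.

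Auxin genes were more often lower than higher. Of 23 genes for auxin transport, synthesis and inactivation, 11 were lower and 2 were higher, with a median log2 difference of -0.92. GH3.5, which conjugates auxin to amino acids, stood at 69.1 FPKM in darkness and 13.9 FPKM in light, and GH3.3 was at 9.0 and 0.438 FPKM. YUC3, an enzyme of auxin synthesis, was at 4.74 FPKM in darkness and 1.04 FPKM in light. Of the Aux/IAA repressors, which are early auxin-response genes, 7 of 19 were lower and 1 was higher. IAA6 was at 46.4 FPKM in darkness and 0.311 FPKM in light, and IAA20 was at 33.9 and 2.18 FPKM. GH3.3 and IAA6 could have entered only by differing. IAA28 was the exception, at 27.7 FPKM in darkness and 98.6 FPKM in light.

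The SAUR family, small auxin-up RNAs that promote cell expansion, had 38 of 68 members lower and 8 higher. Of the 68 members, 9 could have entered only by differing, 1 of them higher. With 1 FPKM added, 35 were lower and 5 were higher. Its median log2 difference was -1.42 as deposited and -0.64 with 5 FPKM added. AT4G13790, which could have entered only by differing, stood at 30.3 FPKM in darkness and 0.115 FPKM in light, and SAUR24 was at 87.7 and 5.56 FPKM. SAUR19 was at 50.1 FPKM in darkness and 1.3 FPKM in light, shares much of its sequence with its neighbours and was one of the genes whose dark value differed between tables. AT4G38840, of the same family, was at 16 FPKM in darkness and 63.4 FPKM in light. The family as a whole summed to 1328 FPKM in darkness and 511 FPKM in light.

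Gibberellin genes held more lower than higher members, and both higher ones could have entered only by differing. GA3OX1 and GA20OX1, which make active gibberellin, were at 32.3 and 8.38 FPKM in darkness and at 6.86 and 1.18 FPKM in light. GA2OX1, which inactivates the hormone, was at 0.105 FPKM in darkness and 17.7 FPKM in light. GA3OX2, another synthesis enzyme, was at 0.138 FPKM in darkness and 11.2 FPKM in light, with a dark value that differed between tables (0.249 FPKM in the pifq table). GAI, a DELLA repressor of gibberellin responses, was at 31.5 and 7.91 FPKM, and in all 5 of 20 genes of the list were lower and 2 were higher. For brassinosteroids, 4 of 17 genes were lower and 1 was higher. CPD, a synthesis enzyme, was at 143 FPKM in darkness and 44.7 FPKM in light, while BAS1, which inactivates the hormone, was at 17.5 and 5.13 FPKM. Ethylene genes had 4 of 19 lower and none higher, among them HLS1, which forms the apical hook, at 11.0 FPKM in darkness and 0.887 FPKM in light. Cytokinin signalling genes had 2 of 22 higher and 2 lower, or 9.09% each way, against 12.7% and 10.4% over all members.

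Abscisic acid and drought genes included 7 of 20 higher and 3 lower. COR47, a dehydrin, stood at 1340 FPKM in darkness and 4114 FPKM in light. KIN1 and RD29A, which respond to cold and drought, were at 52.5 and 76.5 FPKM in darkness and at 680 and 630 FPKM in light. NCED3, the rate-limiting enzyme of abscisic acid synthesis under drought, was at 16.9 FPKM in darkness and 7.60 FPKM in light. CYP707A2, which breaks the hormone down, was at 0.557 and 11.4 FPKM. Heat shock genes had 10 of 21 higher and none lower. HSP70 was at 34.5 FPKM in darkness and 309 FPKM in light, whereas HSC70-1, the constitutive cytosolic form, was at 930 and 755 FPKM.

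Enzymes that loosen the cell wall were lower more often than higher. Of 33 expansins and xyloglucan enzymes, 16 were lower and 8 were higher, with a median of -0.51. XTH15, a xyloglucan endotransglucosylase, stood at 1097 FPKM in darkness and 34.2 FPKM in light. EXPA11 and EXPA9, expansins that loosen the wall during growth, were at 160 and 188 FPKM in darkness and at 20.6 and 21.8 FPKM in light. EXPA10, of the same family, was at 11.0 FPKM in darkness and 71.4 FPKM in light, and XTH7 was at 72.1 and 326 FPKM. Arabinogalactan proteins, glycoproteins of the cell surface, had 19 of 40 members lower and 5 higher, and their summed level was 13296 FPKM in darkness and 5688 FPKM in light. AGP4 was at 1966 FPKM in darkness and 138 FPKM in light. Aquaporins, the water channels of the plasma and vacuolar membranes, had 7 of 27 lower and none higher, and DELTA-TIP of the vacuole was at 2049 and 268 FPKM. Tubulins had 5 of 15 lower and 1 higher, with TUB1 at 156 FPKM in darkness and 29.9 FPKM in light.

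The E-box variant CACATG, read with its reverse complement CATGTG, was found in 11.3% of all upstream windows. It was found in 18.3% of the windows of lower genes, in 10.3% of those of higher genes and in 42.6% of those of the 68 SAUR genes. Like the G-box, with which it cannot overlap, it is known as a site of PIF binding. Upstream sequence of lower growth genes, which were chosen to show the motif and stand for no average, is shown in the same way. Each sequence is the 120 bases before the annotated start in TAIR10.1, with the motif on either strand in capitals. AT4G13790 lies at chr4:8000373-8000492 on the minus strand, AT4G38825 at chr4:18121406-18121525 on the plus strand, IAA6 at chr1:19673653-19673772 on the minus strand, EXPA11 at chr1:6999840-6999959 on the minus strand and DELTA-TIP at chr3:5505240-5505359 on the plus strand.
AT4G13790: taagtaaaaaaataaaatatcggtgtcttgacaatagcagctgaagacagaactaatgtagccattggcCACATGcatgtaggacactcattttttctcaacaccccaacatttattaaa
AT4G38825: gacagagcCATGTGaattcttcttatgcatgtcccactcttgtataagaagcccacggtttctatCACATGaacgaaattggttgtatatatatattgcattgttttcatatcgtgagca
IAA6: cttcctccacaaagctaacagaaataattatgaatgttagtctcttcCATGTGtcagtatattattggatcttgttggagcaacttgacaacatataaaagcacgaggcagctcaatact
EXPA11: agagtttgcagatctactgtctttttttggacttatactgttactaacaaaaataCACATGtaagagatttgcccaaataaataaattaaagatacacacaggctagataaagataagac
DELTA-TIP: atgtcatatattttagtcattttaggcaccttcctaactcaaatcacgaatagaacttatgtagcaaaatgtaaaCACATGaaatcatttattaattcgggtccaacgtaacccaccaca

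CACATG and CATGTG can overlap each other, and the other motifs searched can share at most a few letters at their ends. The motif lies 51 bases before the start in AT4G13790, 112 and 55 in AT4G38825, 73 in IAA6, 65 in EXPA11 and 45 in DELTA-TIP. AT4G38825, a SAUR gene, stood at 24.2 FPKM in darkness and 0.15 FPKM in light, and could have entered only by differing. In the 300 bases before the first coding base, the share of CACATG was 17.0% in lower genes, 45.6% in SAUR genes and 9.87% in all members. TGGGCC, read with its reverse complement, lay in 16.1% of all upstream windows, in 7.35% of those of lower genes and in 47.2% of those of the 282 genes with ribosomal protein products. AAACCCTA, read with its reverse complement, lay in 3.5% of all upstream windows, in 1.96% of those of lower genes and in 15.6% of those of the ribosomal genes.

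**Figure D3:**
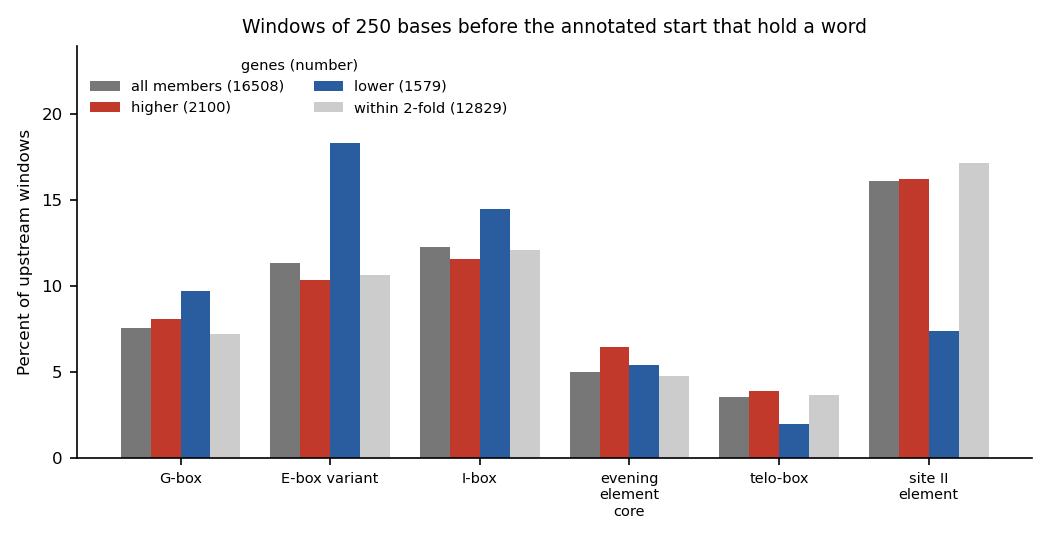
Percent of 250-base upstream windows that hold each sequence motif on either strand, for all protein-coding members, higher genes, lower genes and genes within 2-fold. CACATG lay in 18.3% of windows of lower genes against 11.3% of all windows, and TGGGCC in 7.35% of lower against 16.1% of all.

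Transcription factor genes as a whole were higher about as often as all members and were lower somewhat more often. Of 1135 members in all families, 143 or 12.6% were higher and 152 or 13.4% were lower, with a median log2 difference of -0.12. The shares over all members were 12.7% and 10.4%. With 1 FPKM added, 106 of the 1135 were higher and 119 were lower, against 9.98% and 7.97% of all members. Among these members, 43 had a lower value under 0.5 FPKM and could have entered only by differing, 31 of them higher. BBX25, MYB12, TT8, PRE5, CGA1 and GRF7, described below, are such genes. Families differed in balance. The B-box and CCT family, zinc finger proteins that act around HY5 and the clock, had 12 of 36 members higher and 4 lower. BBX25 was at 0.408 FPKM in darkness and 58.6 FPKM in light, BBX30, a small B-box protein, was at 0.821 and 48.1 FPKM, and BBX22 was at 12.8 and 156 FPKM. COL5 of this family was at 202 FPKM in darkness and 61.6 FPKM in light, and BBX21 at 232 and 104 FPKM. Heat shock factors had 6 of 17 higher and none lower, and HSFA6A was at 5.84 and 61.6 FPKM.

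MYB factors had 25 of 147 or 17.0% higher and 13 or 8.84% lower, against 12.7% and 10.4% over all members. With 1 FPKM added 17 were higher and 8 were lower. Of the 25 higher MYB genes, 7 could have entered only by differing. MYB12, an activator of flavonol genes, was at 0.369 FPKM in darkness and 40.1 FPKM in light, its relative MYB111 was at 0.625 and 7.66 FPKM, and MYB75, an activator of anthocyanin genes, was at 1.77 and 14.7 FPKM. Among 109 bHLH factors, 15 were higher and 19 were lower. TT8, a partner of MYB factors in anthocyanin control, was at 0.0209 FPKM in darkness and 3.22 FPKM in light. PRE1 and PRE5, small bHLH proteins that promote elongation, were at 20.4 and 8.69 FPKM in darkness and at 2.59 and 0.427 FPKM in light. PIL1, a shade marker, was at 25 FPKM in darkness and 3.70 FPKM in light.

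Some other families leaned toward lower levels. Of 64 homeodomain factors, 12 were lower and 6 were higher, and the lower ones included HB-2, HAT1, HAT2, HAT3 and HB4 of the class that responds to shade, of which HB4 had a dark value that differed between tables. HB-2 was at 50.9 FPKM in darkness and 7.62 FPKM in light. Of 30 GRAS factors 6 were lower, of 10 growth-regulating factors 4 were lower and of 14 zinc-finger homeodomain factors 3 were lower, with none higher in any of these families. GRF7, a growth-regulating factor, was at 28.7 FPKM in darkness and 0.245 FPKM in light. Of 21 GATA factors, 3 or 14.3% were lower and 2 or 9.52% were higher, against 10.4% and 12.7% over all members. GATA2, a positive regulator of photomorphogenesis, and its relative GATA4 were at 41.1 and 249 FPKM in darkness and at 6.70 and 56.0 FPKM in light, whereas CGA1, a GATA factor of chloroplast development, was at 0.102 and 10.8 FPKM. Of 61 CCCH zinc finger genes, 7 or 11.5% were lower, near the 10.4% over all members, and 4 were higher. AT5G44260 of that family was at 57.6 FPKM in darkness and 0.968 FPKM in light. No gene among 8 E2F factors was called, and 1 of 24 nuclear factor Y genes was.

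**Figure D4:**
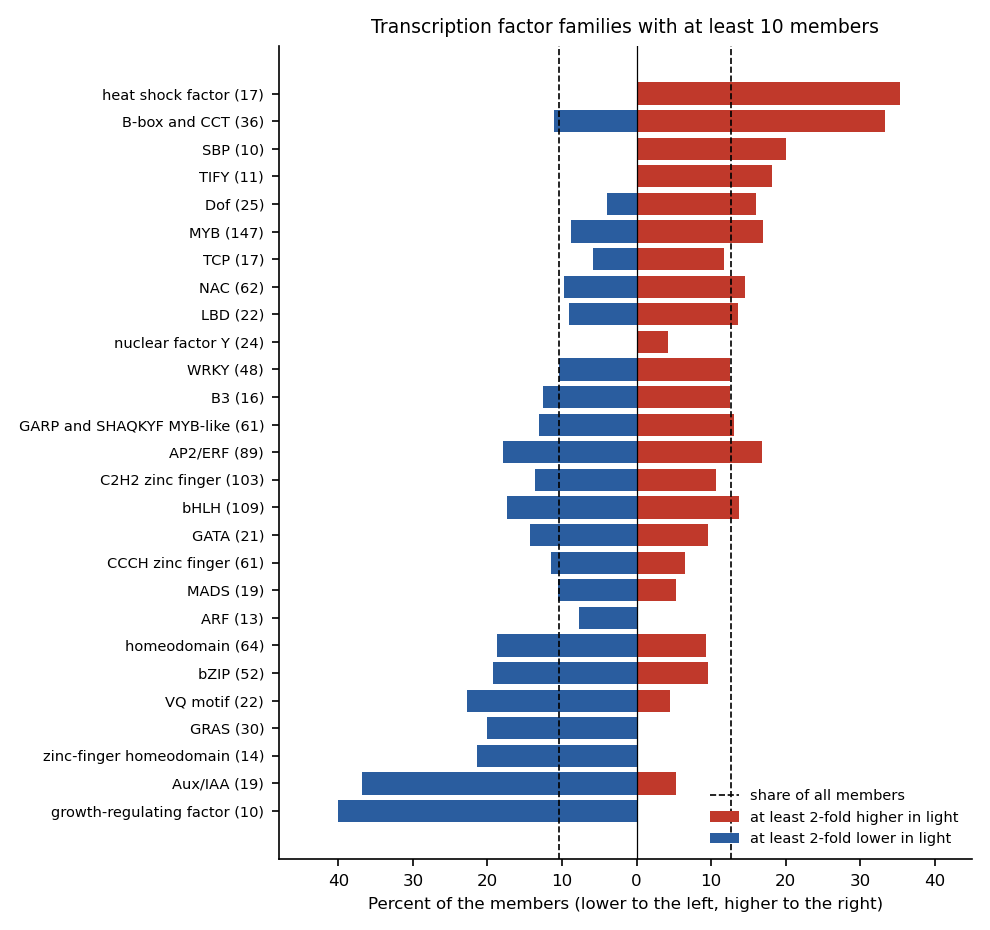
Percent of members at least 2-fold higher (right) and lower (left) in light in each transcription factor family with 10 or more members; dashed lines mark the share over all members, 12.7% higher and 10.4% lower. B-box and heat shock factor families have the longest bars to the right, and the growth-regulating factor and Aux/IAA families to the left.

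Cell division genes stayed close to their dark level. Of 27 members, 1 was higher and none was lower: CYCD3;2, a cyclin of the D class, was at 12.2 FPKM in darkness and 26.0 FPKM in light. Of 10 stomatal lineage genes, 5 were higher and none was lower, but 3 of the 5 could have entered only by differing, and with 1 FPKM added 3 were higher. SPCH, which starts the lineage, stood at 0.390 FPKM in darkness and 4.38 FPKM in light, and EPF2, a peptide of early lineage cells, was at 0.252 and 4.94 FPKM. Both belong to those 3. With 5 FPKM added the median of this list was 0.31.

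Families of organelle gene expression held few lower genes. Of 163 pentatricopeptide repeat proteins, which bind organelle RNA, 40 were higher and none was lower, with a median log2 difference of 0.52. Of these 40, 9 could have entered only by differing, and with 1 FPKM added 17 of 163 were higher, a share close to the 9.98% over all members. MRL1, which stabilises the Rubisco large subunit transcript, was at 4.96 FPKM in darkness and 20 FPKM in light. Of 45 tRNA ligases, 9 were higher and none was lower. Of 282 genes with ribosomal protein products, 20 or 7.09% were higher and 3 were lower, below the 12.7% over all members, and several of the higher ones encode plastid ribosomal proteins, such as PSRP3/1 at 37.6 FPKM in darkness and 227 FPKM in light. Among cytosolic ribosome genes, 11 of 200, or 5.5%, were higher and 2 were lower. Of 37 proteasome genes, 1 was higher and none was lower.

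Families of secondary metabolism and detoxification had more higher than lower genes. Glutathione transferases had 12 of 33 higher and 1 lower, with GSTU19 at 306 FPKM in darkness and 887 FPKM in light. UDP-glycosyltransferases had 26 of 95 higher and 10 lower, 12 members of which could have entered only by differing. Efflux carriers of the MATE class had 9 of 29 higher and 1 lower, and thioredoxins and glutaredoxins had 25 of 93 higher and 9 lower. TRXF1, the thioredoxin that activates Calvin cycle enzymes, was at 6.54 FPKM in darkness and 72.1 FPKM in light. The cytochrome P450 family was even, with 28 of 125 higher and 27 lower. Calmodulins and calcium-binding proteins leaned the other way, with 16 of 82 lower and 2 higher. Pectin-modifying enzymes had 34 of 109 lower and 19 higher.

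The summed losses, but not the summed gains, were carried mostly by RNAs that are not nuclear messengers. Over all members the summed gains came to 219472 FPKM and the summed losses to 635483 FPKM, and the 20 largest losses carried 71.5% of all loss. AT2G01021 (TAIR10.1 chromosome 2, 6571 to 6672), beside the ribosomal RNA gene AT2G01020 (chromosome 2, 5782 to 5945), was at 173689 FPKM in darkness and 13049 FPKM in light. AT2G01020 and AT3G41979 carried identical values, 92467 FPKM in darkness and 7946 FPKM in light, and share their sequence. All 3 of these entries were listed at 0 in darkness in the det1-1 table, for the same dark wild type, whereas the pifq table gave 174568 FPKM for AT2G01021 and 93050 FPKM for the other two, so that their losses are uncertain. How much ribosomal RNA each library held depends on how it was prepared, and the part of that step in this difference was not tested. The next largest losses were those of the plastid identifiers ATCG00960 and ATCG01170. Both carried the same values, 50509 FPKM in darkness and 14181 FPKM in light. Entries with identical values were each counted in the sums. For the 16507 other nuclear protein-coding members, the sums were 822204 FPKM in darkness and 835761 FPKM in light, with gains of 211661 FPKM and losses of 198104 FPKM. The 20 largest gains carried 20.1% of all gain and the 20 largest losses 22.8% of all loss.

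The largest single gain among nuclear protein-coding genes was that of RBCS3B. Next came AT1G13930, annotated as an oleosin-B3-like protein, at 140 FPKM in darkness and 4180 FPKM in light, whose span overlaps AT1G13940. COR413-PM1, a cold-regulated membrane protein, was at 686 FPKM in darkness and 4712 FPKM in light. AT4G23670, a lipid transport-like protein, was among the 15 largest gains while differing by under 2-fold, from 6439 FPKM in darkness to 9457 FPKM in light. DIR1, a lipid transfer-like protein of systemic resistance, was at 63.7 and 1556 FPKM. The largest gains mixed genes of photosynthesis with cold-regulated genes and lipid-binding proteins.

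Among losses, LTP2, a lipid transfer protein of the cuticle, was at 9731 FPKM in darkness and 4356 FPKM in light. DYL1 and AT2G33830, both dormancy-associated, belonged to the largest losses, the latter at 3376 FPKM in darkness and 1147 FPKM in light. GASA4, a gibberellin-regulated peptide, was at 3928 and 1091 FPKM. CA2, a cytosolic carbonic anhydrase, was at 3195 FPKM in darkness and 556 FPKM in light, and PIP1C, a water channel of the plasma membrane, was at 2363 and 595 FPKM. TPX2, a peroxiredoxin at 5698 FPKM in darkness and 2276 FPKM in light, stood at 4637 and 1850 FPKM in darkness in the det1-1 and pifq tables and overlaps other genes. AT2G07795 was at 1865 FPKM in darkness and 0.243 FPKM in light, and its dark value was 0.034 FPKM in the det1-1 table and 1869 FPKM in the pifq table, so that its loss is uncertain.

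**Figure D5:**
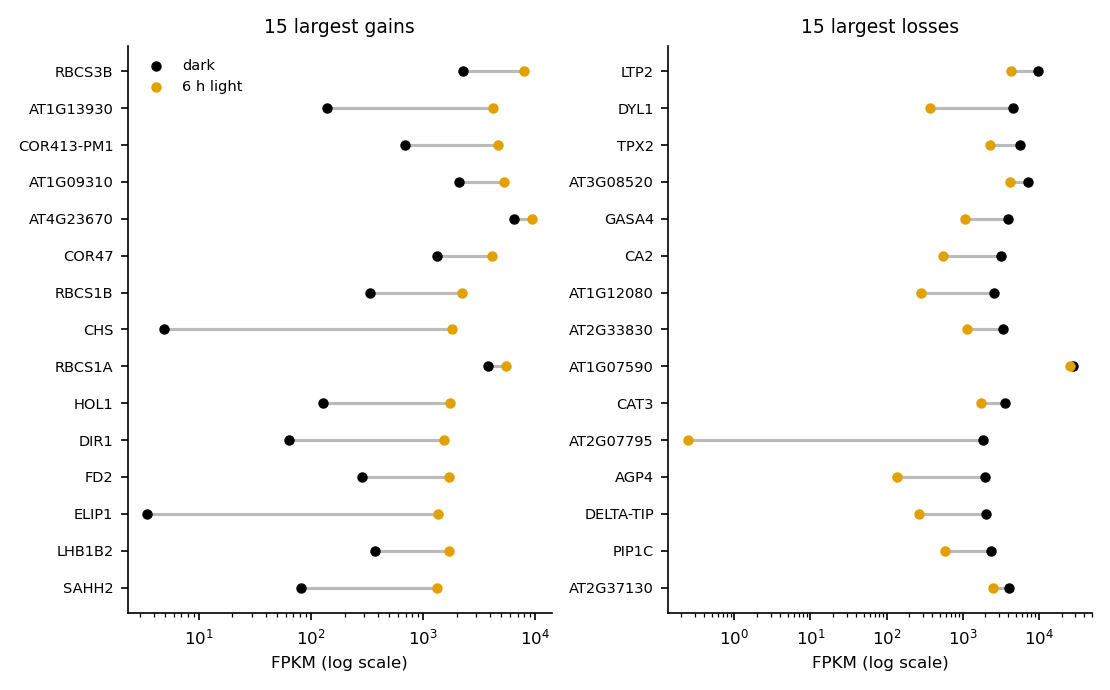
The 15 largest gains and 15 largest losses in FPKM among nuclear protein-coding members without AT2G01021; each line runs from the dark value to the light value. RBCS3B reaches 7956 FPKM in light from 2295 FPKM in darkness, and LTP2 drops from 9731 to 4356 FPKM.

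Several classes outside the nuclear protein-coding set were more often lower than higher. Of 30 members with plastid gene identifiers, 18 were lower and 4 were higher, with a median log2 difference of -1.18, and of 65 with mitochondrial identifiers, 21 were lower and 5 were higher. Of 121 tRNA genes, 65 were lower and 19 were higher. Transfer RNAs, small RNAs and organelle transcripts are poorly captured by standard messenger RNA libraries, and near-identical tRNA genes share reads. Small nucleolar RNAs were even, with 13 of 59 higher and 13 lower. Calls were more frequent at both ends of the range of levels, since 17.64% and 18.45% of genes with a mean under 2 FPKM were higher and lower, against 10.5% and 7.69% of genes with a mean of 10 to 20 FPKM and 15.4% and 13.6% of genes with a mean of at least 100 FPKM. Part of the share under 2 FPKM was fixed by the rule of entry. A gene with a lower value under 0.5 FPKM could enter only by differing.

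Some neighbouring genes were called in the same direction. Runs of at least 3 neighbouring protein-coding members called in the same direction numbered 22 for higher and 15 for lower genes, counts that were not compared with those a random gene order would give. The longest, with 5 genes, was the glutaredoxin-like cluster from AT4G15660 to AT4G15700 on chromosome 4, in which all were higher. Lower runs held SAUR63, whose dark value differed between tables, with its neighbours up to AT1G29465 and SAUR19 with SAUR20 and AT5G18030. RBCS3B, RBCS2B and RBCS1B formed a higher run, and a further one joined GSTF12, PSY and the adjacent SDG40, in which the spans of GSTF12 and PSY overlap. Since 95 of the 368 genes named by rule overlap another annotated gene and the use of strand in counting is not given in the sources used here, reads of overlapping neighbours cannot be told apart.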

How the data were processed

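Total RNA of wild-type seedlings was sequenced on Illumina libraries, per the labels' protocols. The authors deposited 3 tables of FPKM values per gene and group, with a log2 ratio computed by their program, and, per the submitters' processing notes, TopHat and Cufflinks were used with build TAIR10 (versions not given). Each group's FPKM is the authors' value for 3 libraries, printed with no SD or n, and depth is unknown. How the 3 libraries were combined is not given in the sources used here, nor is the use of strand.

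From the deposited FPKM, log2 of Col_DL6h over Col_D was computed and differed from the deposited log2 ratio by at most 0.0005. Unnamed entries (291, holding 10.8% of the dark and 7.25% of the light FPKM sum) and names with several entries were left out. A call is a difference of at least 2-fold. Names, biotypes and locations come from RefSeq's TAIR10.1 annotation, which matched 17115 members. The files hold no coordinates. Spans and upstream sequences were read from TAIR10.1 by gene identifier. Members and gene lists were chosen with earlier results of these data known. Genes were named by rule: the largest gains and losses (15 each way), the largest folds among genes of at least 5 FPKM (5 each way), up to 4 called genes per list and 3 per family, ranked by log2 difference with 1 FPKM added. Genes that met the rule are not all described here. DET1, HY5, CHS and the PIF genes were also named. Genes beyond this rule, such as PHYA, PORB, TT5, TT8, LHY and CAT3, were picked with their values in view. The scripts were checked on simulated data, with Python 3.11.15, pandas 2.3.3, numpy 2.4.6, scipy 1.17.1 and matplotlib 3.10.9. Alternatives were 1 or 5 FPKM added, other minimums, other scalings, genes with agreeing dark values, and other upstream windows. The set with agreeing dark values was judged only on dark values above 0. It therefore kept members listed at 0 in darkness in another table, unless the remaining table disagreed by more than 1.5-fold.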

Additional observations from a re-analysis of the deposited data

Results flagged for a closer look

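Signals outside the members appeared in entries without a gene name and in genes listed at 0 in darkness, for which no fold is given. The unnamed entry with the highest light value stood at 1894 FPKM in darkness and 61164 FPKM in light. Further unnamed entries stood at 1758 and 3710 FPKM, at 1247 and 2517 FPKM, and at 490 and 1133 FPKM. What these entries are is not given in the table.

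Among named genes listed at 0 in darkness, AT3G26520, annotated as tonoplast intrinsic protein 2, was at 4184 FPKM in light. ATCG00920 and ATCG01210 carried the same light value, 1338 FPKM. AT2G07753, a tRNA gene, was at 57.7 FPKM, AT4G15480, a UDP-glycosyltransferase gene, at 39.6 FPKM, and AT1G28730, a tRNA gene, at 36.5 FPKM. Whether a 0 is a failed estimate was not tested.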

How the results depend on the processing

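No paired analysis was possible because the deposited table holds a single value per group, although the labels number the libraries of both groups alike, and for the same reason no replicate could be left out. With 5 FPKM added, 1099 genes were higher and 813 were lower, and with no minimum 2832 were lower. Setting the median or the upper quartile equal shifted all log2 values by -0.01. With unnamed entries kept, the 20 largest gains carried 35.8% of all gain. In nuclear protein-coding genes without AT2G01021, a set chosen after seeing the data, the 20 largest losses carried 22.8% of all loss. Windows from 250 bases before to 50 bases after the start gave, in higher genes, 10.1% for CACGTG, 11.9% for CACATG, 15.7% for GATAAG, 7.76% for AAATATCT and 5.86% for AAACCCTA, and in lower genes 21.6% for CACATG and 17.2% for GATAAG. The 300 bases before the coding start, a window also chosen after seeing the data, gave in higher genes 9.76% for CACGTG, 21.3% for GATAAG, 11.6% for AAACCCTA and 13.4% for TGGGCC, and in lower genes 16.5% for GATAAG, 6.40% for AAACCCTA and 5.07% for TGGGCC. The cause of these shifts was not tested. Of the values recomputed for named genes, 3534 kept direction and side of 2-fold, and 80 kept direction but were under 2-fold. That none reversed is no check of direction. An added constant cannot change a direction, a filter leaves a fold as it was, and the scalings shifted log2 values by only -0.01. The 36 named genes whose dark value differed between tables were left out under that setting and not recomputed. Of the list and family medians, 1161 moved little and 9 moved, in the flavonoid, stomatal, SAUR and HSP20 groups. Unknown depth limits genes near 1 FPKM.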

Other observations

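AT3G09260, at 4418 FPKM in darkness, was listed at 0 in light and is therefore no member. It closes a stretch on chromosome 3 (2819040 to 2843781) of 9 consecutive genes from AT3G09180 that were all listed at 0 in light, among them AT3G09200 at 172 FPKM and AT3G09220 at 51.3 FPKM in darkness. The genes on either side had values in both groups, AT3G09160 at 9.62 and 6.47 FPKM and AT3G09270 at 52.7 and 170 FPKM. Whether this is a failed estimate of a single region was not tested.

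Genes of further families, chosen after their values were seen, differed within the family. Of 13 laccases, oxidases that polymerise lignin, 4 were higher and none was lower, and LAC12 was at 0.613 FPKM in darkness and 10.9 FPKM in light. GER1, a germin-like protein, was at 40.6 and 911 FPKM. Among cellulases of glycosyl hydrolase family 9, GH9B1 was at 106 FPKM in darkness and 4.97 FPKM in light, whereas GH9B8 was at 10.4 and 44.1 FPKM. Of 56 lipid transfer genes, 15 were higher and 6 were lower.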
